A study of Epinephelus fuscoguttatus x Epinephelus lanceolatus with 9 samples.

Results

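The Drug group and the FM group of pearl gentian grouper intestine were compared across all genes of the raw count table, which took 6 of the 9 libraries of the series. This farmed fish is a cross between Epinephelus fuscoguttatus and Epinephelus lanceolatus. The Drug group holds 3 libraries and the FM group 3, and the other 3 libraries form the SBM group. The labels give no more than these names: in aquaculture FM often stands for fish meal, and SBM for soybean meal, and the series title names the herb Lithospermum erythrorhizon and asks about gut health and growth. The labels state neither the dose nor the duration of the herb, nor whether the Drug fish ate an FM or an SBM diet, so an effect of the herb and an effect of a different base diet cannot be told apart in Drug against FM. All groups share the hybrid and the tissue label, and no age, genotype or gut segment is given. The labels do not say whether each library is a different fish. The p-values therefore rest on the spread among libraries alone, and that spread may be technical.

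The fish intestine absorbs dietary fat through enterocytes that bind fatty acids, rebuild triglycerides and export them in lipoproteins. Posterior enterocytes instead take up whole proteins through the receptors cubilin, amnionless and megalin and digest them in large lysosomes. Enterocytes also make cholesterol. When sterol is scarce in the cell, the transcription factor Srebf2 switches on the genes of the mevalonate and sterol pathway, and when sterol is plentiful they are switched off.

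Library totals ran from 32866956 to 35481806 counts, with 20150 to 20588 of 22344 genes detected. FM replicate 3 stood apart. The 254 genes that were at 5 CPM or more in it and over 10 times higher than in any other library took 9.204% of its counts, against 0.0226% to 0.03503% in the other 8 libraries. They include liver genes: summed over 22 hepatocyte markers, the level was 106.4, 122.5 and 111.5 CPM (counts scaled to library size and composition) in the Drug libraries, against 98.61, 103.3 and 22040 CPM in the FM libraries. Results are therefore given with and without FM replicate 3. Enterocyte markers were present in every library, with a sum of 10890, 10200 and 12230 CPM in Drug, against 4982, 4364 and 4030 CPM in FM. Much of the difference came from 1 gene, fabp2, which had 6248, 5111 and 6598 CPM in Drug, against 719, 402 and 836 CPM in FM. The median level of the 9 tested markers was 7.88, 7.9 and 8.21 log2(CPM + 1) in Drug, against 9.14, 8.65 and 8.53 in FM. That median follows only the marker at the middle rank of each library. By gene, 6 log2 fold changes were positive and 3 negative, with a median of 0.42 (0.23 without FM replicate 3). Of these 9 markers 2 rose and 1 fell. In bulk tissue, more cells of a type and more RNA per cell cannot be told apart, here and in every result that follows. No source used here states whether counting used the strand. Paralogues named with a and b, or the alleles of the parent species, can share reads.

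Of 17731 tested genes, 777 passed an adjusted p of 0.05 between Drug and FM (edgeR quasi-likelihood test on all 9 libraries, Benjamini-Hochberg), which is 4.38%. Of these, 507 were higher in Drug (2.86% of tested genes) and 270 lower (1.52%). These shares are the background for each list count below. The lists and their members were chosen with earlier results of these data known. A count above its share is therefore no test of a list. Without FM replicate 3, 568 of 17994 genes passed (3.16%), 353 of them higher (1.96%) and 215 lower (1.19%). Both fits passed 405 genes, all in the same direction. The median log2 fold change over all tested genes was -0.045, and -0.025 without FM replicate 3. The number of calls depended on single libraries. It was 102, 247 and 44 without Drug replicates 1, 2 and 3, and 109 and 10 without FM replicates 1 and 2. Leaving out SBM replicates 1, 2 and 3 gave 1711, 1211 and 281 calls, with 18075, 18026 and 18066 genes tested. The SBM libraries share in the estimate of the spread, and also in the filter and the scaling. Without FM replicate 2, 273 genes still had an adjusted p under 0.1. Of the 777 genes, 454 passed in at least 1 of the 6 fits that each leave out 1 Drug or FM library, 42 in at least 5 and 9 in all 6. Of all tested genes, 32.8% had Drug and FM libraries that did not overlap. All 777 passed genes were among these. A lack of overlap in a passed gene therefore adds nothing to its call.

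**Figure D1:**
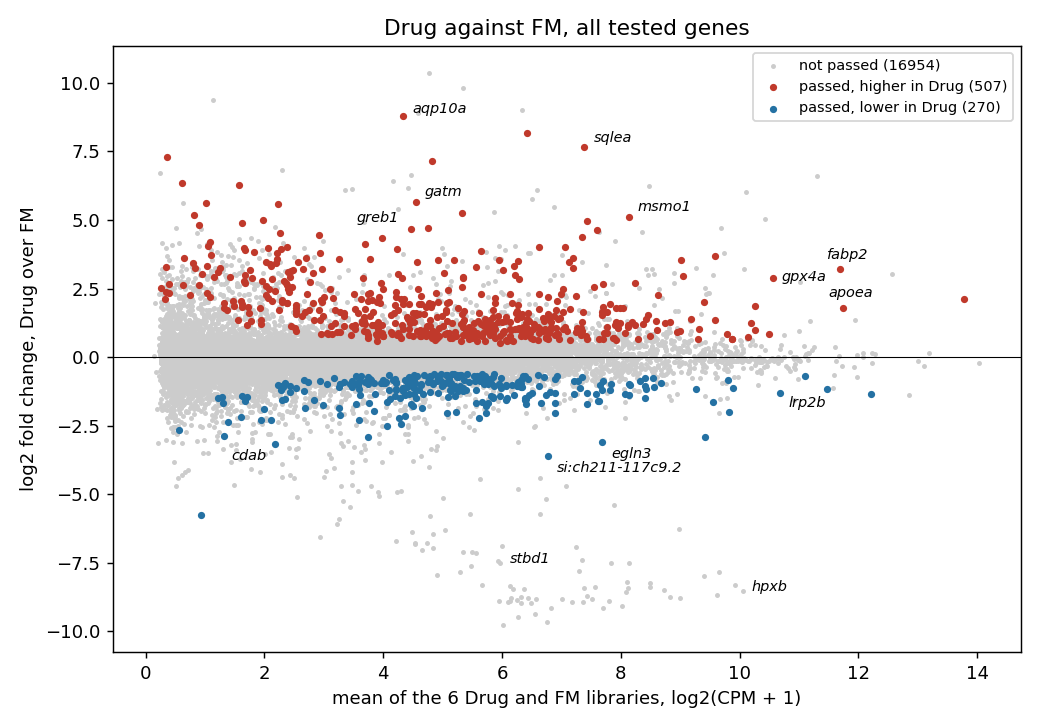
Log2 fold change of Drug over FM (vertical axis) against the mean of the 6 libraries in log2(CPM + 1) (horizontal axis), 1 point per tested gene. The 507 passed genes higher in Drug are red, the 270 passed genes lower in Drug are blue and the others are grey. The grey points below -6, such as hpxb and stbd1, were highest in FM replicate 3.

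Genes of sterol biosynthesis were higher in Drug. Of 20 tested genes of the pathway, 10 rose and none fell, and the median log2 fold change was 2.99. Squalene epoxidase, sqlea, which oxidises squalene, had 567, 145 and 281 CPM in the Drug libraries, against 2.44, 0.527 and 1.94 CPM in the FM libraries. Its mean was 331 ± 216 CPM in Drug and 1.64 ± 0.991 CPM in FM (SD, n = 3 each), and no Drug library came near an FM library (log2 fold change 7.66 ± 0.93, adjusted p = 0.0119; SE throughout unless SD is stated). The methylsterol oxidase gene msmo1 had 857, 300.5 and 476 CPM in the Drug libraries, against 19.8, 6.57 and 20.3 CPM in the FM libraries (log2 fold change 5.13 ± 0.65, adjusted p = 0.0119). Drug replicate 1 was highest and Drug replicate 2 lowest for both genes. Lanosterol synthase, lss, which closes the sterol rings, had 291, 88.3 and 171 CPM in the Drug libraries, against 15.5, 8.65 and 9.87 CPM in the FM libraries (log2 fold change 4.01 ± 0.62, adjusted p = 0.0182). The scaffold gene erg28 had 174, 62.2 and 102 CPM in the Drug libraries, against 11.96, 6.57 and 10.6 CPM in the FM libraries (log2 fold change 3.54 ± 0.44, adjusted p = 0.00979). Both showed the same order of Drug libraries, and the FM libraries lay together well below them.

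Higher levels were found at early and late steps of the pathway. At its start, HMG-CoA synthase hmgcs1 had 1456, 490.3 and 849.9 CPM in the Drug libraries, against 164, 89.4 and 102 CPM in the FM libraries (log2 fold change 2.98 ± 0.54, adjusted p = 0.0266). Mevalonate kinase mvk had 93.8, 25.1 and 50.1 CPM in the Drug libraries, against 6.76, 6.38 and 6.84 CPM in the FM libraries (log2 fold change 3.08 ± 0.52, adjusted p = 0.0225), and the isomerase idi1 had 611, 176 and 291 CPM in the Drug libraries, against 63.7, 49.3 and 55.5 CPM in the FM libraries (log2 fold change 2.68 ± 0.48, adjusted p = 0.025). In each of these 3 genes the lowest Drug library lay above the highest FM library. Among late steps, tm7sf2 (log2 fold change 3.87 ± 0.67, adjusted p = 0.0246), hsd17b7 (1.62 ± 0.3, 0.0256) and the reductase gene dhcr7 (2.69 ± 0.5, 0.0276) passed. HMG-CoA reductase hmgcra, the rate-limiting enzyme, had 937, 351 and 561 CPM in the Drug libraries, against 40.99, 15.7 and 140.01 CPM in the FM libraries. It did not pass (adjusted p = 0.0844), and the highest FM value was that of FM replicate 3, the library with liver transcripts.

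Without FM replicate 3, 11 of the 20 genes passed, all higher in Drug, with a median of 3.2. The genes hmgcra (log2 fold change 4.44 ± 0.82, adjusted p = 0.0398), fdft1 (5.0, 0.0277), sc5d (3.45, 0.03999) and acat2 (2.37, 0.0494) then passed. In all 4 of them FM replicate 3 had been the highest FM library, for example at 71.5 CPM of fdft1, which encodes squalene synthase, against 8.45 and 5.83 CPM in FM replicates 1 and 2. In the same fit hmgcs1 (0.0563), idi1 (0.0522) and hsd17b7 (0.051) had adjusted p just over 0.05. The count of sterol genes higher in Drug was 3, 10 and 3 without Drug replicates 1, 2 and 3, 3, 0 and 11 without FM replicates 1, 2 and 3, and 13, 13 and 9 without SBM replicates 1, 2 and 3. The genes ggps1, which makes a precursor of protein prenylation, and lbr, which also has a structural role in the nucleus, overlapped between groups: ggps1 had 13.2, 12.9 and 12.8 CPM in Drug, against 17.2, 14.9 and 12.1 CPM in FM (adjusted p = 0.654) and lbr 11.8, 9.89 and 7.22 CPM in Drug, against 6.76, 8.6 and 7.84 CPM in FM (0.593). Drug replicate 1 was the highest Drug library in 20 of the 20 genes and Drug replicate 2 the lowest in 18.

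**Figure D2:**
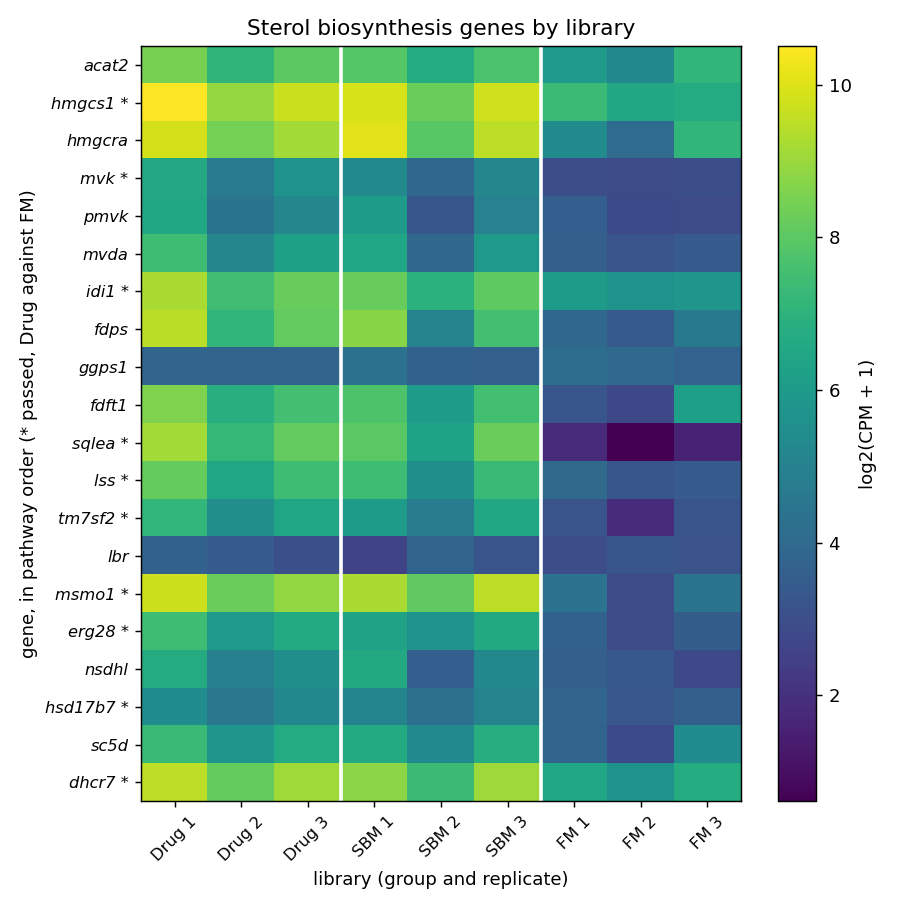
Heat map of 20 sterol biosynthesis genes (rows, in pathway order) in 9 libraries (columns), with colour showing log2(CPM + 1). Asterisks mark the 10 genes that passed between Drug and FM. The Drug columns are brighter than the FM columns in most rows, and hmgcra, fdft1 and sc5d are brighter in FM 3 than in FM 1 and FM 2.

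Among 18 tested genes of sterol control, uptake and export, 1 rose and 3 fell, with a median of 0.09. The transcription factor gene srebf2 had 225, 129.9 and 232 CPM in the Drug libraries, against 52.3, 44.8 and 43.2 CPM in the FM libraries (log2 fold change 2.06 ± 0.31, adjusted p = 0.0169, and 0.0368 without FM replicate 3). Sterol O-acyltransferase soat2, which stores cholesterol as esters, had 181, 125 and 159 CPM in the Drug libraries, against 442, 382 and 398 CPM in the FM libraries (log2 fold change -1.39 ± 0.28, adjusted p = 0.0307). The lysosomal cholesterol exporter npc1 had 31.8, 39.3 and 33.8 CPM in the Drug libraries, against 64.5, 56.5 and 80.995 CPM in the FM libraries (log2 fold change -0.95 ± 0.2, adjusted p = 0.0361). For the sterol efflux transporter gene abcg5, Drug libraries had 40.6, 44.8 and 62.4 CPM and FM libraries 100.3, 91.9 and 112 CPM (log2 fold change -1.04 ± 0.23, adjusted p = 0.0406). In these 4 genes the Drug and FM libraries did not overlap. The 3 lower genes missed the threshold without FM replicate 3, with adjusted p of 0.0503, 0.067 and 0.0742. The intestinal cholesterol importer npc1l1 had 659, 556 and 665 CPM in the Drug libraries, against 125, 54.9 and 54.4 CPM in the FM libraries and did not pass (log2 fold change 3.01 ± 0.73, adjusted p = 0.0581). The SBM libraries, which share in the estimate of the spread, ranged widely for npc1l1, at 1126, 120 and 488 CPM. The 3 lower genes passed in none of the 6 fits that leave out 1 Drug or FM library, and srebf2 passed in 2, those without Drug replicate 2 and without FM replicate 3.

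Some genes of fat uptake were higher in Drug as well. Of 19 tested genes of fat uptake and lipoproteins, 4 rose and none fell, and the median log2 fold change was 1.79. The intestinal fatty acid binding protein fabp2 had 6248, 5111 and 6598 CPM in the Drug libraries, against 719, 402 and 836 CPM in the FM libraries (log2 fold change 3.2 ± 0.49, adjusted p = 0.0183), a 9.17-fold difference. Apolipoprotein E gene apoea had 6074, 4255 and 5638 CPM in the Drug libraries, against 1748, 1497 and 1399 CPM in the FM libraries (log2 fold change 1.78 ± 0.22, adjusted p = 0.00979). The triglyceride-building enzyme gene mogat2 had 95.3, 105 and 144 CPM in the Drug libraries, against 27.9, 15.3 and 26.3 CPM in the FM libraries (log2 fold change 2.31 ± 0.5, adjusted p = 0.0406). In all 3 the lowest Drug library exceeded the highest FM library. The lipid droplet gene plin3 had 407, 302 and 466 CPM in the Drug libraries, against 124, 74.5 and 141 CPM in the FM libraries (log2 fold change 1.79 ± 0.41, adjusted p = 0.0461). Its paralogue plin2 ranged more widely, with 1766, 777 and 919.7 CPM in the Drug libraries, against 220.2, 236 and 238 CPM in the FM libraries (adjusted p = 0.294). The second apolipoprotein E gene, apoeb, had 481, 1078 and 1775 CPM in the Drug libraries, against 27.9, 18.8 and 306 CPM in the FM libraries; it did not pass over all libraries (0.185) and passed without FM replicate 3 (log2 fold change 5.57 ± 1.06, adjusted p = 0.0422). The fit without FM replicate 3 no longer passed mogat2 (0.0687) and plin3 (0.0629). The number of higher genes in the list was 1, 2 and 1 without Drug replicates 1, 2 and 3, 1, 0 and 3 without FM replicates 1, 2 and 3, and 9, 9 and 2 without SBM replicates 1, 2 and 3. In the list of fatty acid and glycerolipid synthesis, 2 of 23 genes rose (median 0.26): mogat2 and the desaturase fads2, which had 9.47, 5.52 and 7.22 CPM in Drug, against 2.24, 2.06 and 2.15 CPM in FM (log2 fold change 1.78 ± 0.35, adjusted p = 0.03001, and 0.0576 without FM replicate 3). The 2 that passed without FM replicate 3 were instead elovl5 (2.2, adjusted p = 0.0422) and dgat2 (2.73, 0.0305).

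The labels give no gut segment, so values of genes tied to position along the gut stand beside the lipid results. The transcription factor gata5 had 118, 77.9 and 126 CPM in the Drug libraries, against 9.66, 4.51 and 11.9 CPM in the FM libraries (log2 fold change 3.63 ± 1.01, adjusted p = 0.0844). The peptide transporter gene slc15a1a, abundant in absorptive enterocytes of the anterior gut, had 51.5, 217 and 295 CPM in the Drug libraries, against 2.57, 0.132 and 5.63 CPM in the FM libraries (log2 fold change 6.08 ± 1.75, adjusted p = 0.0952). Neither passed, although the groups did not overlap. In the other direction, the posterior patterning gene hoxa9a had 4.29, 4.6 and 2.06 CPM in the Drug libraries, against 11.7, 18.2 and 8.54 CPM in the FM libraries (log2 fold change -1.81 ± 0.56, adjusted p = 0.0987), and the intestinal transcription factor gene cdx1a had 235, 238 and 157 CPM in the Drug libraries, against 561, 488 and 369 CPM in the FM libraries (log2 fold change -1.17 ± 0.22, adjusted p = 0.0266). Of the 17 tested genes in the gut region list, 1 rose (fabp2) and 1 fell (cdx1a), 4 were non-overlapping and higher in Drug, and 7 were non-overlapping and lower. The list median was -0.92. Of all tested genes, 32.8% did not overlap, counting both directions. The gene gata4 (6.92, adjusted p = 0.0494) passed as well when FM replicate 3 was left out, against an adjusted p of 0.976 with it. It had 0.569, 2.09 and 3.55 CPM in the Drug libraries, against 0.0274, 0 and 5.75 CPM in the FM libraries. The FM replicate left out was thus above every Drug library, and the other FM values were at or near 0. The part of gut position in the differences between Drug and FM was not tested. Neither fabp2 nor cdx1a passed without Drug replicate 1 or 3 or without FM replicate 1 or 2, and only fabp2 passed without Drug replicate 2.

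The receptors of protein-absorbing enterocytes, named after their values were seen, had lower values in Drug. Cubilin, cubn, had 918, 1109 and 904 CPM in the Drug libraries, against 2787, 3454 and 2488 CPM in the FM libraries (log2 fold change -1.57 ± 0.41, adjusted p = 0.0648), and its partner amnionless, amn, had 182, 134 and 136 CPM in the Drug libraries, against 418, 447 and 360.1 CPM in the FM libraries (log2 fold change -1.44 ± 0.37, adjusted p = 0.0591). Both missed the threshold, and in both the Drug libraries lay below every FM library. Such a lack of overlap was found in 32.8% of all tested genes, counting both directions. Megalin, lrp2b, had 1116, 755 and 952 CPM in the Drug libraries, against 2671, 2519.6 and 1779 CPM in the FM libraries and passed (log2 fold change -1.3 ± 0.21, adjusted p = 0.0186, and 0.0196 without FM replicate 3). SBM replicate 2, a single library, had 3496 CPM of cubn, 782 CPM of fabp2 and 6.17 CPM of gata5, near the FM libraries. Its sqlea level was 80.4 CPM, against 249 and 305 CPM in SBM replicates 1 and 3 and 2.44 CPM in the highest FM library. Whether sqlea goes with gut position was not tested. In the list of lysosome and protein-absorbing enterocyte genes, 1 of 38 rose and 4 fell (median -0.44). The glycosaminoglycan sulfatases gnsa (-0.73 ± 0.15, adjusted p = 0.0321) and gnsb (-1.04 ± 0.24, 0.0471) and the lysosomal channel mcoln1a (-0.73 ± 0.17, 0.0473) were the other genes that fell. The protease cathepsin D gene ctsd rose, with 350.2, 325 and 368 CPM in the Drug libraries, against 191, 174 and 198 CPM in the FM libraries (log2 fold change 0.89 ± 0.17, adjusted p = 0.03001). Of these 5, lrp2b and gnsa alone passed without FM replicate 3. The number of lower genes was 0, 0 and 0 without Drug replicates 1, 2 and 3, 0, 0 and 2 without FM replicates 1, 2 and 3, and 12, 8 and 1 without SBM replicates 1, 2 and 3.

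**Figure D3:**
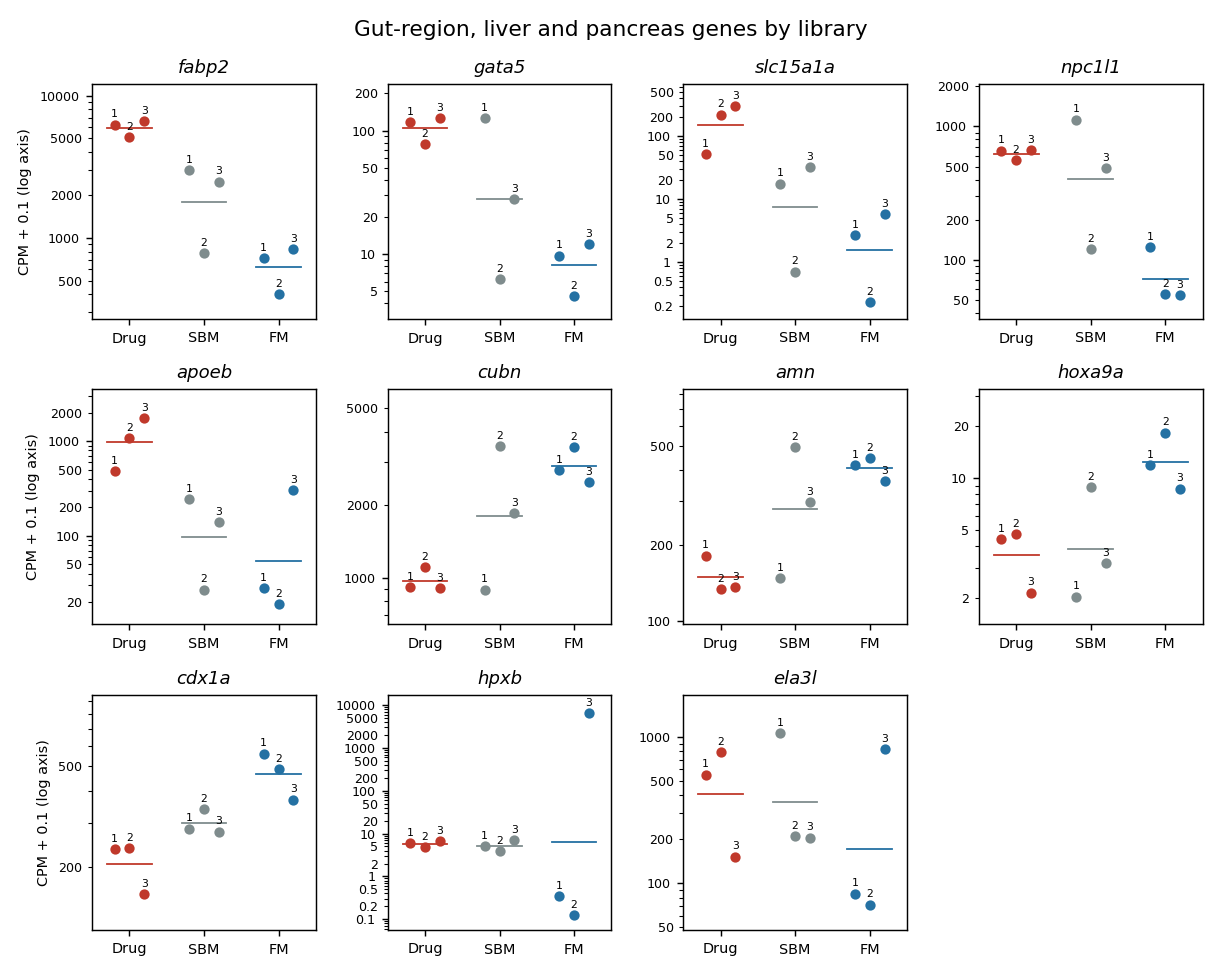
Levels of 11 genes by library (CPM + 0.1, log axis), with Drug on the left, SBM in the middle and FM on the right of each panel. Points are single libraries with their replicate number, and lines are geometric means. The panels for fabp2, gata5, slc15a1a and npc1l1 place every Drug library above every FM library, as does apoeb, while cubn, amn, hoxa9a and cdx1a place them below. Liver hpxb is high in FM replicate 3 alone, and the pancreatic elastase gene ela3l varies within both groups.

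Some genes of fatty acid oxidation were also higher. Of 35 tested genes 9 rose and none fell, with a median log2 fold change of 0.64 (0.78, with 9 higher, without FM replicate 3). The carnitine transferase gene cpt1ab, which admits fatty acids to mitochondria, had 93.6, 103 and 139 CPM in the Drug libraries, against 57.5, 49.9 and 62.7 CPM in the FM libraries (log2 fold change 0.98 ± 0.19, adjusted p = 0.0297). Its paralogue cpt1b was rarer, with 1.62, 2.03 and 2.88 CPM in the Drug libraries, against 0.219, 0.448 and 0.177 CPM in the FM libraries (log2 fold change 2.93 ± 0.43, adjusted p = 0.0159). The dehydrogenase gene acadvl had 201, 166 and 175 CPM in the Drug libraries, against 79.6, 67.3 and 103 CPM in the FM libraries (log2 fold change 1.12 ± 0.18, adjusted p = 0.019), and hadhb, of the trifunctional protein, had 420.1, 295 and 315 CPM in the Drug libraries, against 139.9, 116 and 167 CPM in the FM libraries (log2 fold change 1.28 ± 0.21, adjusted p = 0.0193). The peroxisomal oxidase gene acox3 had 289.8, 286 and 334 CPM in the Drug libraries, against 116, 73.3 and 123 CPM in the FM libraries (log2 fold change 1.54 ± 0.29, adjusted p = 0.0267). All 5 separated the groups. The other genes that rose were crot, decr2, eci2 and acaa2, with log2 fold changes from 0.87 to 1.98. With FM replicate 3 left out, crot and decr2 missed the threshold, and ehhadh (1.51, adjusted p = 0.0305) and hsd17b4 (1.65, 0.0329) passed in their place. The count was 1, 3 and 0 without Drug replicates 1, 2 and 3, 0, 0 and 9 without FM replicates 1, 2 and 3, and 15, 12 and 4 without SBM replicates 1, 2 and 3.

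Of 51 tested nuclear genes of oxidative phosphorylation, 7 rose by small amounts and none fell. The other 44 did not pass. All 51 log2 fold changes were positive (median 0.52), and 44 genes had Drug libraries above all FM libraries. Of all tested genes, 32.8% did not overlap, counting both directions. Drug replicate 1 was the highest Drug library in 46 of the 51, and the list median without it was 0.39. ATP synthase subunit atp5f1b had 1269, 1082 and 1119.9 CPM in the Drug libraries, against 759, 689 and 728 CPM in the FM libraries (log2 fold change 0.67 ± 0.14, adjusted p = 0.0326), and the complex II subunit sdhb had 56.8, 45.98 and 57.9 CPM in the Drug libraries, against 37.5, 27.7 and 29.99 CPM in the FM libraries (log2 fold change 0.75 ± 0.18, adjusted p = 0.0476). The complex I subunit ndufb5 had 109, 77.9 and 76.5 CPM in the Drug libraries, against 52.6, 45.7 and 54.3 CPM in the FM libraries (log2 fold change 0.78 ± 0.17, adjusted p = 0.0407). The highest fold among the 7 was 1.72. With limma on log2(FPKM + 1) or log2(FPKM + 0.1), 0 of the 51 passed. None of the 7 passed without FM replicate 3, where ndufa4a alone did (1.09, adjusted p = 0.0305). The count was 0, 0 and 0 without Drug replicates 1, 2 and 3, 0, 0 and 1 without FM replicates 1, 2 and 3, and 14, 8 and 0 without SBM replicates 1, 2 and 3. Mitochondrial ribosomal proteins had 0 of 75 genes past the threshold (median 0.28) and the citrate cycle 0 of 21 (median 0.17). In both lists most log2 fold changes were positive, 70 of 75 and 21 of 21.

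Some cell division genes were higher in Drug, with 20 of 72 tested genes of DNA replication and the cell cycle higher, none lower and a median of 2.09. The helicase subunit mcm5, which opens DNA for replication, had 46.9, 43.001 and 39.2 CPM in the Drug libraries, against 12.97, 8.46 and 12.3 CPM in the FM libraries (log2 fold change 1.94 ± 0.27, adjusted p = 0.0138). The proliferation marker mki67 had 80.6, 47.5 and 48.5 CPM in the Drug libraries, against 22.7, 21.4 and 14.9 CPM in the FM libraries (log2 fold change 1.58 ± 0.26, adjusted p = 0.0183). The primase gene prim1 had 9.04, 4.35 and 6.58 CPM in the Drug libraries, against 1.61, 1.32 and 2.15 CPM in the FM libraries (log2 fold change 1.97 ± 0.36, adjusted p = 0.0248). Drug and FM libraries did not overlap in any of the 3. The kinetochore motor gene cenpe had 15.2, 6.06 and 2.38 CPM in the Drug libraries, against 0.465, 0.527 and 0.471 CPM in the FM libraries (log2 fold change 4.0 ± 0.89, adjusted p = 0.0443) and the spindle gene kif4 had 15.3, 7.32 and 4.61 CPM in Drug, against 0.629, 0.765 and 1.06 CPM in FM (log2 fold change 3.47 ± 0.73, adjusted p = 0.0373). Within Drug, replicate 1 was highest in 68 of the 72 genes and replicate 3 lowest in 54. In SBM, mcm5 had 13.2, 22.5 and 27.3 CPM, the lowest of them close to the FM libraries. Over the list, SBM overlapped with Drug. The median level of the 72 genes was 3.53, 2.78 and 2.25 log2(CPM + 1) in Drug and 1.19, 3.12 and 2.3 in SBM. It was 1.22, 1.0 and 1.23 in FM. When FM replicate 3 was left out, 7 genes passed (mcm2, mcm4, mcm5, mcm6, gins3, prim1 and mki67), with a median of 2.27. The count was 0, 5 and 0 without Drug replicates 1, 2 and 3, 2, 0 and 7 without FM replicates 1, 2 and 3, and 48, 37 and 8 without SBM replicates 1, 2 and 3.

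Proteasome subunits rose in 7 of 45 tested genes and fell in none, with a median of 0.65. The core subunit psma1 had 154, 107 and 141 CPM in the Drug libraries, against 74.1, 57.4 and 76.96 CPM in the FM libraries (log2 fold change 0.95 ± 0.19, adjusted p = 0.03001), psmb7 had 130.2, 92.3 and 120.3 CPM in the Drug libraries, against 58.96, 39.6 and 66.3 CPM in the FM libraries (log2 fold change 1.06 ± 0.22, adjusted p = 0.0368), and the regulatory subunit psmd3 had 229, 174 and 233 CPM in the Drug libraries, against 118, 82.2 and 129.8 CPM in the FM libraries (log2 fold change 0.95 ± 0.21, adjusted p = 0.0406). The lowest Drug library exceeded the highest FM library in each. These 3 of the 7 passed without FM replicate 3. The count was 0, 3 and 0 without Drug replicates 1, 2 and 3, 0, 0 and 3 without FM replicates 1, 2 and 3, and 19, 10 and 0 without SBM replicates 1, 2 and 3. Drug replicate 2 was the lowest Drug library in 37 of the 45 genes.

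Of 46 tested genes of antioxidant and glutathione metabolism, 7 rose and 1 fell, and the median was 0.01. Microsomal glutathione transferase mgst3a had 357, 323 and 309 CPM in the Drug libraries, against 121, 90.3 and 102 CPM in the FM libraries (log2 fold change 1.66 ± 0.17, adjusted p = 0.00878), and mgst3b had 329.99, 295 and 336 CPM in the Drug libraries, against 55.1, 30.4 and 77.5 CPM in the FM libraries (log2 fold change 2.56 ± 0.35, adjusted p = 0.0137). Glutathione reductase gsr had 165, 164 and 159 CPM in the Drug libraries, against 85.4, 79.2 and 67.3 CPM in the FM libraries (log2 fold change 1.07 ± 0.15, adjusted p = 0.0137). Drug and FM libraries did not overlap in these 3 genes. Glutathione peroxidase gpx4a, which reduces lipid peroxides, had 2828, 2179 and 2971 CPM in the Drug libraries, against 457, 167 and 441 CPM in the FM libraries (log2 fold change 2.9 ± 0.52, adjusted p = 0.027). The other genes that rose were gpx7, prdx5 and txn, with log2 fold changes of 1.36, 0.84 and 1.0. The growth inhibitor gene osgn1, induced by oxidative stress in mammals, fell, with 24.8, 33.7 and 25.7 CPM in the Drug libraries, against 74.7, 62.99 and 55.04 CPM in the FM libraries (log2 fold change -1.19 ± 0.19, adjusted p = 0.0182). The list had 5 higher and 2 lower genes without FM replicate 3. The number of higher genes was 3, 3 and 1 without Drug replicates 1, 2 and 3, 2, 0 and 5 without FM replicates 1, 2 and 3, and 8, 10 and 5 without SBM replicates 1, 2 and 3.

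Of 24 tested genes of creatine and polyamine synthesis, 3 rose and none fell (median 0.13), and all 3 serve creatine synthesis or import. The enzyme gatm, which makes the first intermediate of creatine, had 15.3, 87.8 and 28.9 CPM in the Drug libraries, against 0.657, 0.237 and 1.71 CPM in the FM libraries (log2 fold change 5.67 ± 1.09, adjusted p = 0.0354). Drug replicate 2 was highest and the SBM libraries, at 3.65, 0.574 and 3.48 CPM, overlapped with FM. The second enzyme, gamt, had 188, 272 and 229 CPM in the Drug libraries, against 119, 91.3 and 76.3 CPM in the FM libraries (log2 fold change 1.27 ± 0.27, adjusted p = 0.0378). The creatine importer slc6a8 had 314, 428 and 480.4 CPM in the Drug libraries, against 123, 116 and 110.5 CPM in the FM libraries (log2 fold change 1.81 ± 0.24, adjusted p = 0.0119). Each separated Drug from FM. Both gatm (0.0398) and slc6a8 (0.0303) passed without FM replicate 3, and gamt did not (0.0754). The number of higher genes was 1, 1 and 0 without Drug replicates 1, 2 and 3, 1, 0 and 2 without FM replicates 1, 2 and 3, and 4, 4 and 2 without SBM replicates 1, 2 and 3.

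In ion and water transport, 3 of 26 genes rose and none fell, with a median of -0.09. The aquaglyceroporin gene aqp10a, a channel for water and glycerol, had 12.3, 68.1 and 34.4 CPM in the Drug libraries, against 0.164, 0 and 0.0884 CPM in the FM libraries (log2 fold change 8.78 ± 1.56, adjusted p = 0.03001). It was nearly absent from FM, with 6, 0 and 3 counts in the FM libraries, and present in every Drug library with at least 433 counts. The anion exchanger slc26a6 and the sodium bicarbonate cotransporter slc4a4a both serve bicarbonate secretion in the marine fish gut. Drug libraries had 20.7, 37.3 and 54.7 CPM of slc26a6 and FM libraries 11.8, 9.28 and 8.6 CPM (log2 fold change 1.92 ± 0.31, adjusted p = 0.0186). The cotransporter had 121, 224 and 284 CPM in the Drug libraries, against 41.3, 38.1 and 48.03 CPM in the FM libraries (log2 fold change 2.3 ± 0.44, adjusted p = 0.0281). Drug replicate 1 was the lowest Drug library in all 3 genes. The first 2 passed without FM replicate 3, at adjusted p of 0.0482 and 0.044, and slc4a4a did not (0.0516). The count was 2, 1 and 0 without Drug replicates 1, 2 and 3, 0, 0 and 2 without FM replicates 1, 2 and 3, and 5, 5 and 2 without SBM replicates 1, 2 and 3. Among amino acid and peptide transporters, 1 of 26 rose and 1 fell (median -0.39), and among sugar and vitamin transporters 1 of 20 rose and 2 fell (median -0.02). Of all tested genes, 2.86% were higher and 1.52% lower. The thiamine transporter slc19a3a had 43.9, 47.5 and 57.4 CPM in the Drug libraries, against 15.8, 14.4 and 15.2 CPM in the FM libraries (log2 fold change 1.71 ± 0.24, adjusted p = 0.0137), and the iron exporter slc40a1 had 139, 132 and 189 CPM in the Drug libraries, against 486, 331 and 334 CPM in the FM libraries (log2 fold change -1.33 ± 0.24, adjusted p = 0.0256). The aromatic amino acid carrier slc16a10 rose (1.29 ± 0.3, adjusted p = 0.0481), while the riboflavin transporter slc52a3 (-0.79 ± 0.17, 0.0355) and slc15a4 (-1.03 ± 0.24, 0.045) fell. All of these but slc15a4 (0.0597) passed without FM replicate 3.

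The 3 egln genes in the table, which encode prolyl hydroxylases of the oxygen-sensing pathway, were lower in Drug. They form no list of their own. These enzymes mark the hypoxia-inducible factor for degradation when oxygen is present. The gene egln3 had 17.5, 60.9 and 50.5 CPM in the Drug libraries, against 413, 302 and 387 CPM in the FM libraries (log2 fold change -3.1 ± 0.42, adjusted p = 0.0136), or 8.55-fold lower. Its paralogues were named after their values were seen: egln1a had 41.96, 51.98 and 51.6 CPM in the Drug libraries, against 144, 117 and 115 CPM in the FM libraries (log2 fold change -1.37 ± 0.17, adjusted p = 0.00979) and egln2 had 28.03, 38.2 and 38.8 CPM in the Drug libraries, against 98.9, 85.1 and 109.7 CPM in the FM libraries (log2 fold change -1.48 ± 0.19, adjusted p = 0.00979). The highest Drug library lay below the lowest FM library in each, and all 3 passed without FM replicate 3, at adjusted p of 0.0257, 0.0175 and 0.0228. In the fits that leave out 1 Drug or FM library, egln1a and egln2 passed in 5 of 6 and egln3 in 4. None passed without FM replicate 2. SBM libraries lay between, with 180.4, 253 and 247 CPM of egln3. In glycolysis and gluconeogenesis, 0 of 31 genes rose and 2 fell (median -0.27): pfkfb4b, which sets the level of a glycolytic activator, had 61.3, 33.99 and 72.7 CPM in the Drug libraries, against 192, 188 and 156 CPM in the FM libraries (log2 fold change -1.68 ± 0.27, adjusted p = 0.0186), and lactate dehydrogenase ldhba had 347, 502 and 299 CPM in the Drug libraries, against 780.5, 1072 and 681 CPM in the FM libraries (log2 fold change -1.14 ± 0.27, adjusted p = 0.0467). Without FM replicate 3, pfkfb4b (0.0306) passed, ldhba (0.051) did not, and the gluconeogenic enzyme gene pck2 passed as higher in Drug (1.16, adjusted p = 0.0398). The list median was then -0.05, where the median of all tested genes was -0.025. The number of lower genes was 0, 1 and 0 without Drug replicates 1, 2 and 3, 0, 0 and 1 without FM replicates 1, 2 and 3, and 4, 3 and 1 without SBM replicates 1, 2 and 3.

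Among 49 genes of translation factors and TOR signalling, 0 rose and 2 fell, with a median of -0.26. Of all tested genes, 4.38% passed and 1.52% were lower, so so few calls say little about the list. The regulatory subunit of phosphoinositide 3-kinase, pik3r1, had 129.6, 144 and 135 CPM in the Drug libraries, against 301, 323 and 309 CPM in the FM libraries (log2 fold change -1.19 ± 0.13, adjusted p = 0.00878). Elongation factor 2 kinase, eef2k, which slows protein synthesis, had 23.99, 37.3 and 38.9 CPM in the Drug libraries, against 98.9, 85.2 and 114 CPM in the FM libraries (log2 fold change -1.57 ± 0.21, adjusted p = 0.0131). Both passed in 5 of the 6 fits that leave out 1 Drug or FM library. They did not pass without FM replicate 2. The SBM libraries had 146, 142 and 149 CPM of pik3r1, close to Drug, but 87.5, 103 and 97.1 CPM of eef2k, close to FM. Cytosolic ribosomal proteins (76 genes, median -0.11), ribosome biogenesis (69 genes, median -0.15) and the growth axis of growth hormone and insulin-like growth factors (18 genes, median -0.54) had no gene past the threshold. Their medians without FM replicate 3 were -0.05, -0.2 and -0.2, again with no gene past the threshold.

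**Figure D4:**
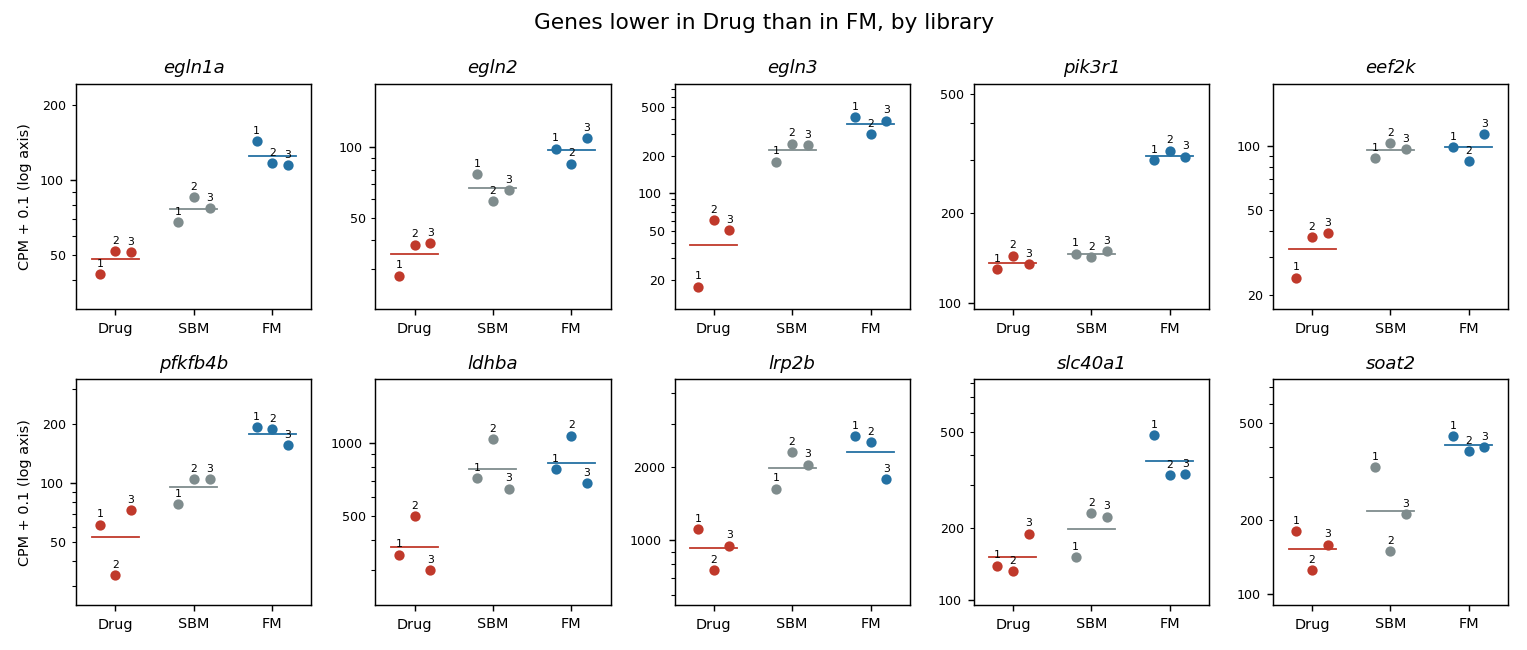
Levels of 10 genes that were lower in Drug than in FM, by library (CPM + 0.1, log axis), with Drug on the left, SBM in the middle and FM on the right. Points are single libraries with their replicate number, and lines are geometric means. All 10 passed between Drug and FM. The SBM points lie near Drug for pik3r1 and near FM for eef2k and ldhba.

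Clock genes fell in 4 of 34 and rose in none, with a median of -0.29. The activator arntl1a had 23.9, 23.4 and 20.7 CPM in the Drug libraries, against 41.6, 52.4 and 40.7 CPM in the FM libraries (log2 fold change -0.99 ± 0.18, adjusted p = 0.0246), and the repressor bhlhe40 had 19.4, 24.7 and 27.8 CPM in the Drug libraries, against 61.1, 60.7 and 45.05 CPM in the FM libraries (log2 fold change -1.22 ± 0.2, adjusted p = 0.0183). The other genes that fell were arntl2 (-0.68 ± 0.14, adjusted p = 0.0322) and cry1b (-0.78 ± 0.17, 0.03996). Drug libraries lay below FM libraries in all 4. The time of sampling is not given in the labels. Of these, arntl1a and bhlhe40 passed without FM replicate 3. The count was 0, 1 and 0 without Drug replicates 1, 2 and 3, 0, 0 and 2 without FM replicates 1, 2 and 3, and 8, 5 and 2 without SBM replicates 1, 2 and 3.

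Immune genes were counted in 4 lists. Of 39 cytokines and chemokines, 0 rose and 3 fell, where 1.52% of all tested genes were lower (median -0.36). The granulocyte growth factor gene csf3a had 2.25, 3.2 and 1.61 CPM in the Drug libraries, against 8.95, 6.12 and 10.4 CPM in the FM libraries (log2 fold change -1.85 ± 0.33, adjusted p = 0.025), and il17d had 7.9, 15.01 and 9.86 CPM in the Drug libraries, against 25.8, 29.3 and 17.8 CPM in the FM libraries (log2 fold change -1.15 ± 0.27, adjusted p = 0.0478). The receptor gene il17rd also fell (-1.48 ± 0.31, adjusted p = 0.0371). In pattern recognition and NF-kappaB, 1 of 48 rose and 2 fell (median -0.18), where 2.86% of all tested genes were higher and 1.52% lower. The inflammasome adaptor pycard had 72.9, 61.99 and 85.5 CPM in the Drug libraries, against 40.7, 40.2 and 39.9 CPM in the FM libraries (log2 fold change 0.87 ± 0.19, adjusted p = 0.0393). The regulator nfkbiz had 10.5, 13.3 and 12.2 CPM in Drug, against 22.98, 26.9 and 19.5 CPM in FM (log2 fold change -0.94 ± 0.17, adjusted p = 0.0243). The deubiquitinase cyldb also fell (-0.95 ± 0.22, 0.0454). Interferon response (32 genes) and antigen presentation (21 genes) had none. Of all 51 lists, 18 had no gene past the threshold. Without FM replicate 3, csf3a (0.0487), il17d (0.0429) and nfkbiz (0.0303) passed. Each of these lists had no gene past the threshold without Drug replicate 1, without Drug replicate 3, or without FM replicate 1 or 2. Without Drug replicate 2, 2 cytokine genes and no gene of the other list passed.

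Markers of immune cells were measured beside these genes. The summed level of 20 T and NK cell markers was 263, 349.2 and 327.2 CPM in Drug, against 392.1, 471.2 and 433.5 CPM in FM. These sums did not overlap, as was found for 32.8% of single tested genes, and 0 of 20 tested genes passed. B and plasma cell markers summed to 284.7, 400.4 and 296 CPM in Drug, against 445, 398.3 and 408.8 CPM in FM, and overlapped. By gene, all 13 tested markers had a negative log2 fold change, with a median of -0.55 (-0.75 without FM replicate 3). Of 13 tested B and plasma cell markers 1 fell, the kinase gene btk, with 9.27, 12.3 and 10.8 CPM in the Drug libraries, against 19.4, 19.96 and 18.4 CPM in the FM libraries (log2 fold change -0.84 ± 0.2, adjusted p = 0.0475, and 0.0697 without FM replicate 3). The sum of macrophage and neutrophil markers was 3411, 3252 and 2952 CPM in Drug, against 2796, 2433 and 2331 CPM in FM. The lectin gene lgals2b, which had 2217, 1549 and 1781 CPM in Drug, against 1126, 948 and 1005 CPM in FM, differed by more on average than these sums did, and 19 of the 27 tested markers had a negative log2 fold change (median -0.23). They had 1 of 27 genes higher (lgals2b) and 1 lower: the oxidase subunit ncf1 had 4.35, 7.12 and 4.79 CPM in the Drug libraries, against 9.88, 12.7 and 12.3 CPM in the FM libraries (log2 fold change -1.1 ± 0.22, adjusted p = 0.03001). Smooth muscle markers summed to 11390, 16050 and 10840 CPM in Drug, against 14710, 17970 and 9697 CPM in FM, so the groups overlapped. The part of cell composition in the differences between Drug and FM was not tested.

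At cell contacts, 2 of 28 junction genes rose and 1 fell (median -0.08). Claudin 15a, cldn15a, a tight junction protein of the gut, had 165, 132 and 151 CPM in the Drug libraries, against 63.2, 31.4 and 39.2 CPM in the FM libraries (log2 fold change 1.75 ± 0.28, adjusted p = 0.0186). The intestinal cadherin cdh17 had 1529, 1313 and 1408 CPM in the Drug libraries, against 918, 848 and 797 CPM in the FM libraries (log2 fold change 0.73 ± 0.13, adjusted p = 0.0243). The polarity gene crb3b fell, with 3.78, 2.72 and 3.14 CPM in the Drug libraries, against 6.46, 8.46 and 7.54 CPM in the FM libraries (log2 fold change -1.22 ± 0.21, adjusted p = 0.0229). Groups did not overlap in any of the 3. Without FM replicate 3, cldn15a (0.0438) and crb3b (0.0446) passed and cdh17 (0.0518) did not. The number of higher junction genes was 0, 2 and 0 without Drug replicates 1, 2 and 3, 1, 0 and 1 without FM replicates 1, 2 and 3, and 2, 2 and 2 without SBM replicates 1, 2 and 3. Of 59 collagen and matrix genes 5 rose, where 2.86% of all tested genes were higher. The 5 included the basement membrane chains col4a1 (0.62 ± 0.14, adjusted p = 0.042) and col4a2 (0.71 ± 0.14, 0.0323) and the linker nid1a (0.59 ± 0.13, 0.0434). None of the 59 passed when any 1 Drug or FM library, or SBM replicate 3, was left out.

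Autophagy genes went both ways, with 3 of 41 higher and 1 lower (median -0.09). The phagophore protein gene wipi1 had 17.99, 11.2 and 8.04 CPM in the Drug libraries, against 3.72, 3.8 and 3.89 CPM in the FM libraries (log2 fold change 1.7 ± 0.28, adjusted p = 0.0197), and the initiating kinase ulk1b had 68.1, 56.3 and 85.7 CPM in the Drug libraries, against 29.1, 23.02 and 42.5 CPM in the FM libraries (log2 fold change 1.15 ± 0.26, adjusted p = 0.041). The cargo receptor gene nbr1b also rose (1.19 ± 0.24, adjusted p = 0.0342). The protease atg4da fell, with 37.5, 31.7 and 38.5 CPM in the Drug libraries, against 81.8, 74.1 and 55.04 CPM in the FM libraries (log2 fold change -0.97 ± 0.19, adjusted p = 0.0311). All but nbr1b passed without FM replicate 3. The number of higher autophagy genes was 0, 1 and 1 without Drug replicates 1, 2 and 3, 0, 0 and 2 without FM replicates 1, 2 and 3, and 5, 3 and 2 without SBM replicates 1, 2 and 3.

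In each of the remaining lists described, 0 to 3 genes passed, where 4.38% of all tested genes did. Of 14 brush border genes none passed, although sucrase-isomaltase, si, had 706.77, 765.18 and 994.95 CPM in Drug, against 92.862, 53.737 and 228.37 CPM in FM (adjusted p = 0.0572, and 0.0371 without FM replicate 3). The collagen chaperone serpinh1b rose in 1 of 52 heat shock and chaperone genes (0.88, adjusted p = 0.03), and the oxidase ero1a fell in 1 of 57 genes of folding in the endoplasmic reticulum (-0.96, 0.0467). In the Hippo pathway wwc1 (-0.98, 0.0271) and taok3a (-0.67, 0.0298) fell among 29 genes, and in Wnt and Notch signalling hey1 (-1.21, 0.0271) fell among 54. These 5 genes passed without FM replicate 3 as well. In purine and pyrimidine metabolism, the adenosine deaminase ada rose (1.63, adjusted p = 0.0331) and prps1b (-1.03, 0.0467) and cdab fell among 40 genes, and cdab alone of them passed without FM replicate 3.

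**Figure D5:**
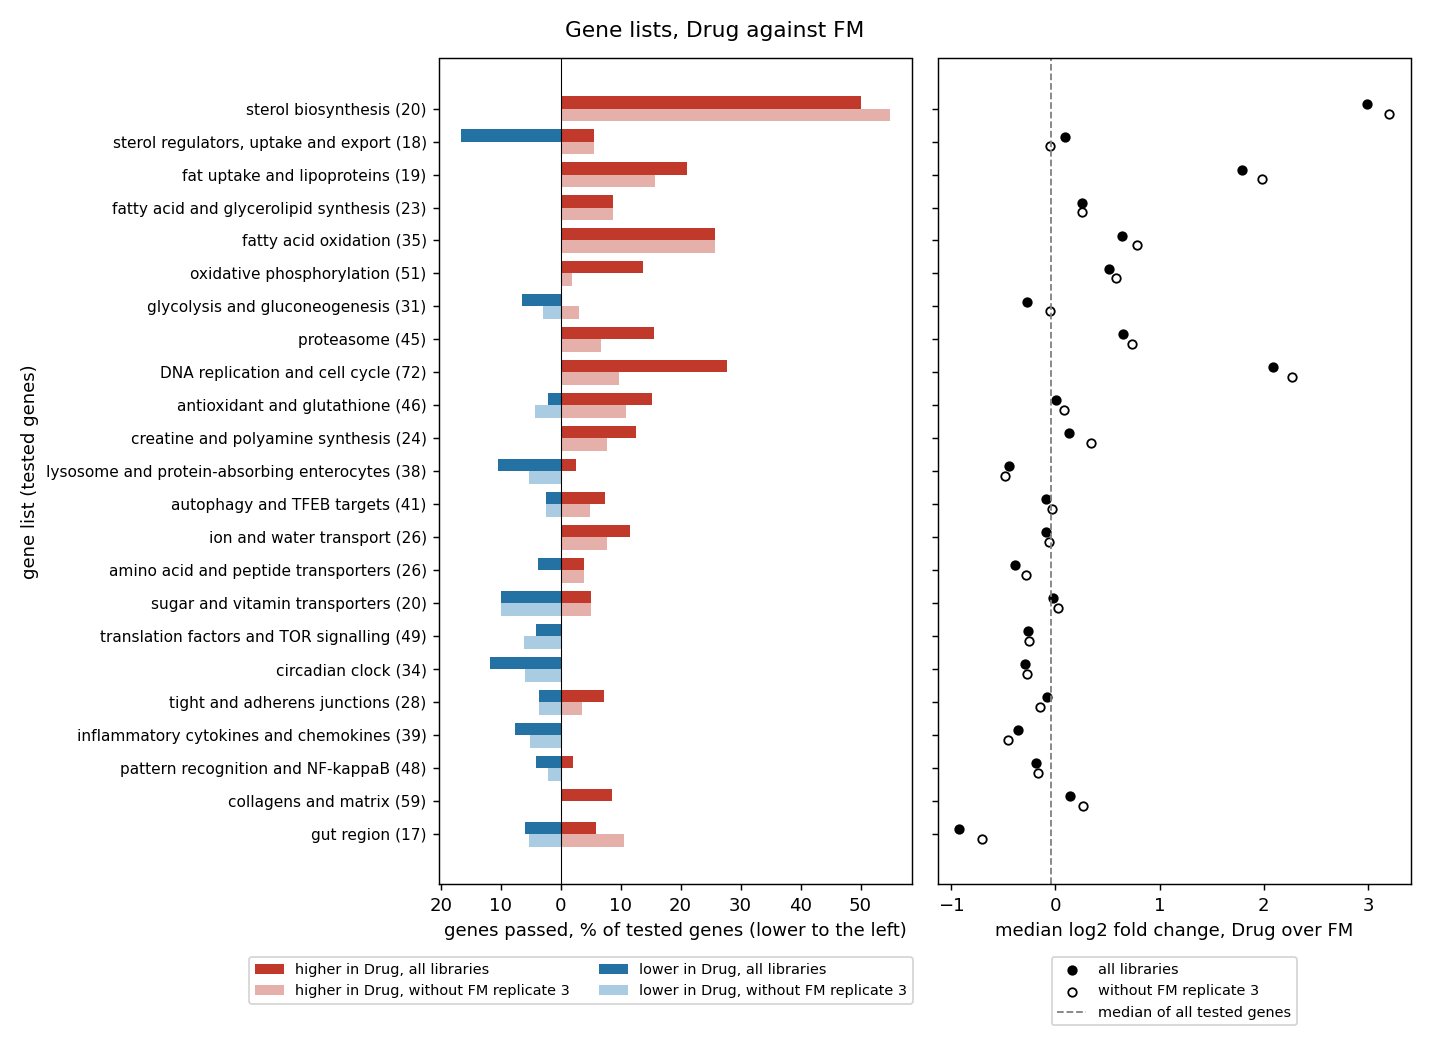
Left, the share of tested genes in each of 23 lists that passed between Drug and FM, higher to the right and lower to the left, with all libraries (dark bars) and without FM replicate 3 (pale bars). Right, the median log2 fold change of each list with all libraries (filled) and without FM replicate 3 (open), beside the median of all tested genes (dashed line, -0.045). Sterol biosynthesis has the highest median, 2.99, and the gut region list the lowest, -0.92.

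Among genes with the largest differences that are in none of the groups above, greb1, an oestrogen-responsive growth regulator in human cells, had 39.3, 38.1 and 44.4 CPM in the Drug libraries, against 1.37, 1.87 and 1.5 CPM in the FM libraries (log2 fold change 4.68 ± 0.28, adjusted p = 0.000642). It passed in all 6 fits that leave out 1 Drug or FM library. The SBM libraries had 11.6, 19.3 and 22.97 CPM of greb1, all above FM and below Drug (SBM over FM, log2 fold change 3.5 ± 0.27, adjusted p = 0.00276). The AMP deaminase gene ampd2b had 13.3, 13.2 and 10.95 CPM in the Drug libraries, against 0.876, 0.396 and 0.442 CPM in the FM libraries (log2 fold change 4.44 ± 0.96, adjusted p = 0.0418), and tecta, which encodes a matrix protein of the inner ear in mammals, had 20.98, 16.4 and 29.9 CPM in the Drug libraries, against 1.4, 0.817 and 1.68 CPM in the FM libraries (log2 fold change 4.11 ± 0.9, adjusted p = 0.0449). In SBM, ampd2b had 7.12, 0.258 and 2.5 CPM and tecta 15.6, 0.919 and 5.09 CPM, so replicate 2 alone was at FM level. The gene vwa11 had 13.9, 46.7 and 23.7 CPM in the Drug libraries, against 1.67, 0.606 and 1.86 CPM in the FM libraries (log2 fold change 4.35 ± 0.64, adjusted p = 0.0173), and zgc:136472 had 24.99, 51.7 and 73.8 CPM in the Drug libraries, against 0.848, 0.659 and 4.21 CPM in the FM libraries (log2 fold change 4.72 ± 1.03, adjusted p = 0.0471). The unnamed gene si:ch211-266i6.3 had 13.5, 5.72 and 2.55 CPM in the Drug libraries, against 0.246, 0.29 and 0.412 CPM in the FM libraries (log2 fold change 4.51 ± 0.96, adjusted p = 0.0394). These 3 separated the groups, which the rule that named them required, with Drug replicates that differed among themselves. The SBM libraries had 42.7, 17.1 and 44.6 CPM of vwa11, above every FM library and overlapping with Drug. They had 16.6, 3.04 and 22.7 CPM of zgc:136472 and 1.15, 10.7 and 3.04 CPM of si:ch211-266i6.3. Neither ampd2b, tecta nor si:ch211-266i6.3 passed in any fit that left out 1 Drug or FM library.

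Among genes lower in Drug, si:ch211-117c9.2 had 7.19, 19.7 and 22.6 CPM in the Drug libraries, against 185, 166 and 252 CPM in the FM libraries (log2 fold change -3.61 ± 0.58, adjusted p = 0.019). Cytidine deaminase cdab had 0.512, 0.658 and 0.94 CPM in the Drug libraries, against 7.72, 2.27 and 8.96 CPM in the FM libraries (log2 fold change -3.16 ± 0.53, adjusted p = 0.0197). The acyl-CoA synthetase gene acsbg2 had 57.5, 117 and 66.1 CPM in the Drug libraries, against 251, 214 and 322 CPM in the FM libraries (log2 fold change -1.71 ± 0.33, adjusted p = 0.03001), and the ERBB receptor feedback inhibitor errfi1a had 6.45, 14.5 and 8.72 CPM in the Drug libraries, against 30.4, 28.6 and 37.9 CPM in the FM libraries (log2 fold change -1.71 ± 0.28, adjusted p = 0.0192). All 4 were lower in every Drug library than in any FM library, which the rule that named them required. The genes palm3, whrna, pip5kl1 and sema4d also fell, with log2 fold changes of -2.44, -2.28, -1.87 and -1.71. So did stxbp6 and si:dkey-183n20.15, with -1.78 and -1.72. Of these 10 genes, all but acsbg2 (0.0568) passed without FM replicate 3. Each failed the threshold in at least 2 of the 6 fits that leave out 1 Drug or FM library, and all but cdab failed without FM replicate 2.

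A few genes passed whichever Drug or FM library was left out, and were named after their values were seen. Beside greb1 they were tstd1 and crip1, the product of the last being a LIM-domain protein abundant in intestine. The gene tstd1 had 49.1, 44.1 and 51.3 CPM in the Drug libraries, against 10.7, 7.2 and 10.3 CPM in the FM libraries, and crip1 had 1069.5, 967 and 1197 CPM in the Drug libraries, against 317, 181 and 299 CPM in the FM libraries. Log2 fold changes were 2.36 and 2.02, with adjusted p of 0.00516 and 0.00943. The other 6 of these 9 genes carry a bare LOC number that the files do not pair with a name, as do 259 of the 777 genes that passed. LOC125905235 had 202, 145 and 159.7 CPM in the Drug libraries, against 0.821, 0.185 and 0.737 CPM in the FM libraries (log2 fold change 8.18 ± 0.74, adjusted p = 0.00668), while LOC125893712 had 126, 149 and 204 CPM in the Drug libraries, against 1015, 1437 and 1144 CPM in the FM libraries (log2 fold change -2.91 ± 0.22, adjusted p = 0.00258). In both, SBM lay between, at 24.5, 7.21 and 27.8 CPM and 387, 479 and 426 CPM.

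Some genes passed in the edgeR fit without FM replicate 3 and not in the edgeR fit over all 9 libraries. The starch-binding protein gene stbd1 had 0.853, 0.715 and 0.44 CPM in the Drug libraries, against 9.28, 8.46 and 351 CPM in the FM libraries (log2 fold change -3.72 ± 0.38, adjusted p = 0.00881 without FM replicate 3, against an adjusted p of 0.0583 with it). The receptor gene adgrg4a had 40.8, 135 and 157 CPM in the Drug libraries, against 2.19, 0.844 and 5.48 CPM in the FM libraries, and rgrb had 10.6, 8.35 and 17.7 CPM in the Drug libraries, against 0.192, 0.0791 and 12.2 CPM in the FM libraries. With FM replicate 3 left out their adjusted p was 0.0488 and 0.0158, both higher in Drug, against 0.0504 and 0.572 with it. DESeq2 over all libraries passed adgrg4a (adjusted p = 1.36e-05) and not rgrb (0.567). Hemopexin, hpxb, a plasma protein made in liver, had 5.998, 4.83 and 6.55 CPM in the Drug libraries, against 0.246, 0.0264 and 6361 CPM in the FM libraries. Against FM replicates 1 and 2 alone hpxb was higher in Drug (log2 fold change 5.39 ± 0.65, adjusted p = 0.0149), and with all libraries the sign was opposite (-8.52, 0.213). The hepatocyte genes fgb, itih2 and fabp10a did likewise, each at under 3 CPM in every Drug library. These low levels were not particular to Drug: SBM had 4.9, 3.82 and 7.03 CPM of hpxb, and all of these genes overlapped between Drug and SBM. Exocrine pancreas markers also varied between libraries, with sums of 1650, 2349 and 510.4 CPM in Drug, against 252.6, 214.5 and 2298 CPM in FM, and 0 of 5 passed. The source of the low levels of liver genes in the Drug and SBM libraries was not tested.

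The SBM libraries, which share the estimate of the spread, were set beside Drug for some of the same genes. A difference between Drug and FM is not by itself particular to Drug. For example, SBM had 226, 204 and 217 CPM of acadvl, 190, 135 and 221 CPM of cldn15a and 1.91, 1.67 and 1.13 CPM of csf3a, all at or beyond the Drug level. Other genes, such as eef2k at 87.5, 103 and 97.1 CPM, were near FM in SBM. Between Drug and SBM 7 of 17731 genes passed (0.0395%), and of the genes named above osgn1 and hey1 were among these. The first had 24.8, 33.7 and 25.7 CPM in the Drug libraries, against 117, 89.8 and 111 CPM in the SBM libraries (log2 fold change -1.91 ± 0.19, adjusted p = 0.0426). For sqlea, SBM libraries had 249, 80.4 and 305 CPM, and the log2 fold change of Drug over SBM was 0.65 ± 0.69 (adjusted p = 0.73). For msmo1 it was 0.01 ± 0.54 (0.995). For egln3 it was -2.4 ± 0.41 (0.105), and for fabp2 1.52 ± 0.46 (0.24). The other genes that passed were yap1, the transcription coactivator of the Hippo pathway, the Notch target hey1, mknk2b, pnrc2 and 2 genes with LOC numbers. The gene yap1 had 9.3, 10.9 and 10.5 CPM in the Drug libraries, against 24.3, 32.4 and 28.1 CPM in the SBM libraries (-1.47 ± 0.18, adjusted p = 0.0426), and hey1 had 2.02, 2.37 and 2.55 CPM in the Drug libraries, against 9.59, 7.44 and 10.5 CPM in the SBM libraries (-1.98 ± 0.23, 0.0426). All 7 were lower in every Drug library than in any SBM library. A p over 0.05 does not show that Drug and SBM are alike. The count of 7 was between 0 and 36 when 1 library of any group was left out, the highest without SBM replicate 1.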

How the data were processed

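Total RNA of intestine was sequenced in 9 libraries, 3 per group, read from the group label. The authors deposited a table of raw read counts per gene and FPKM values per library, which were proportional across libraries to the count over the library total, within a relative 1e-06, in all 15780 genes whose count was never under 10. Tools listed in the submitters' processing notes are R 3.2.0, HISAT2, HTSeq, fastp and DESeq2, and the role of each is not stated. The build listed is mm10, a mouse assembly, and no source used here gives the grouper annotation. Counts were tested with edgeR 4.0.16 (R 4.3.3) after filterByExpr and TMM scaling, with a quasi-likelihood fit over all 9 libraries and group as the term, and Benjamini-Hochberg adjustment over 17731 genes. Folds are Drug over FM, and levels are CPM on TMM-scaled libraries. The SE of a log2 fold change is its absolute value divided by the square root of the quasi-likelihood F statistic. It is thus derived from the test and was not estimated separately. Alternatives were RLE size factors, DESeq2 1.42.0, other filters, each library left out, Drug and FM alone, the replicate number as a block, removal of liver-restricted genes, and limma 3.58.1 on log2(FPKM + 1) and log2(FPKM + 0.1). Leaving out single SBM libraries was added after seeing the data. The edgeR fit over all 9 libraries was tested on simulated counts, in which no library was set apart as FM replicate 3 was. It recovered 70 of 100 genes changed 2-fold and 99 of 100 changed 4-fold, and 8 of its 177 calls were false. The alternative fits were not tested on simulated counts. Members and gene lists were chosen with earlier results of these data known. Named genes were the 12 largest passed folds in each direction among genes with a symbol, a Drug or FM mean of at least 5 CPM and no overlap of libraries, 8 each way by the same rule without FM replicate 3, and up to 5 members of each described list by smallest p. Further list members and other genes were named after their values were seen. Some list members are not reported here and were left out of the lists. Every table column was matched to a sample. Totals ran from 32866956 to 35481806 counts per library, and libraries of 1 group differed by more than counting error.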

Additional observations from a re-analysis of the deposited data

How the results depend on the processing

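The 777 calls between Drug and FM were 788 with RLE size factors, 620 without a filter, 971 with a stricter one, 889 without liver-restricted genes, and 664 and 628 with limma on log2(FPKM + 1) and log2(FPKM + 0.1). DESeq2 gave 2455 and Drug and FM fitted alone 1578, or 1907 with FM replicate 3 also left out. Leaving out 1 Drug or FM library gave 10 to 568 calls, and leaving out SBM replicates 1, 2 and 3 gave 1711, 1211 and 281. The 568 calls without FM replicate 3 became 2339 with DESeq2 and 1907 without SBM. Between Drug and SBM the 7 calls became 629 with DESeq2, 1 with the replicate block and 0 to 36 with a library left out. The labels give no meaning to shared replicate numbers. Drug and FM libraries of the same number had residual correlations of 0.114, 0.114 and 0.052, Drug and SBM of 0.068, 0.189 and 0.37, and FM and SBM of 0.227, 0.318 and 0.155. Each library correlated best with its own number in each other group, a hint from the data, not the design. The replicate block gave 1293 calls between Drug and FM. With it the number of higher genes was 17 of 20 in sterol biosynthesis (10 without the block), 8 of 19 in fat uptake (4), 14 of 35 in fatty acid oxidation (9), 24 of 45 in the proteasome (7) and 12 of 72 in DNA replication and the cell cycle (20). The last count was also 12 and 10 with limma on log2(FPKM + 1) and log2(FPKM + 0.1). With Drug and FM fitted alone, the numbers of higher genes in these lists, in the same order, were 13, 10, 12, 11 and 44. In that fit 14 of 38 lysosome and protein-absorbing enterocyte genes were lower, against 4 with all libraries. The liver genes hpxb, spp2 and ahsg1 changed sign, to 5.387, 5.830 and 4.816 without FM replicate 3, and to 5.389, 5.841 and 4.820 with Drug and FM alone and FM replicate 3 left out; with all libraries they did not pass, and over the fits that leave out 1 library their lowest values were -9.097, -9.642 and -9.011. Across settings 145 passed genes were followed: those named by rule, every passed list member and further genes, some of them named after their values were seen. All 145 kept their call with RLE size factors, DESeq2, the stricter filter and removal of liver-restricted genes. DESeq2 and that removal passed all 777 genes, so for them this had to hold. The number was 129 with the replicate block, 115 without a filter, and 110 and 109 with limma on log2(FPKM + 1) and log2(FPKM + 0.1). It was 64 without SBM replicate 3 and 2 to 79 with 1 Drug or FM library left out, and none changed sign. With 3 libraries a group, a gene that did not pass may still differ. Except as stated, the cause of these shifts was not tested.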

Other observations

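The exocrine pancreas gene ela3l had 551.5, 785.1 and 152.2 CPM in Drug, against 85.09, 71.51 and 827.8 CPM in FM, and 1060.3, 210.8 and 205.1 CPM in SBM. Hepatocyte markers summed to 106.4, 122.5 and 111.5 CPM in Drug, 115, 169.3 and 149.5 CPM in SBM and 98.61, 103.3 and 22040 CPM in FM.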
